A study of Homo sapiens with 6 samples.

Results

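FRK, SRC, YES1, FYN, LYN, PTK6 and CSK are 7 of the 19775 genes named on Affymetrix HG-U133 Plus 2.0 arrays of PC3 cells, and they were measured by every probe set that names only 1 of them, 23 of 41091. They were selected on earlier results of these same arrays, the differences between the siRNA groups. Their levels and differences are therefore given as a description, with standard errors and no p-value. PC3 is an established human prostate cancer line. Total RNA was taken 72 h after transfection with scrambled siRNA or with siRNA for VEGF-C or NRP-2, with 2 arrays in each group. VEGF-C is a growth factor of lymphatic vessels, and NRP-2 (neuropilin-2) is a co-receptor for it. All groups are the same line in RPMI medium with 10% serum. Each siRNA was given as 1 pool, and the VEGF-C and NRP-2 pools came from different suppliers, so depletion of a target cannot be told apart from other effects of that pool. The labels do not say that the arrays of a group came from separate cultures, so the spread between them may be technical.

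Src family kinases are non-receptor tyrosine kinases that relay signals from growth factor receptors and integrins to the cytoskeleton, to cell adhesions and to gene expression. An SH3, an SH2 and a kinase domain are shared by the family and by FRK and PTK6. A phosphorylated tyrosine in the carboxy-terminal tail folds the kinase into its inactive form. In SRC, YES1, FYN and LYN that tyrosine is phosphorylated by CSK, and the membrane adaptor PAG1 brings CSK to them. FRK and PTK6 are related kinases found mainly in epithelial cells, and PTK6 lacks the amino-terminal lipid anchor of the Src family. FRK has been described as growth-suppressing in several epithelial cancers, whereas SRC, YES1 and PTK6 are mostly described as growth-promoting. All of these are controlled largely by phosphorylation, which expression arrays do not measure.

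Values are the deposited log2 signals, on which a difference of 1 is 2-fold. The signal of one probe set was not set against that of another. A gene was followed by its brightest probe set, and it was tested where the 6 arrays averaged log2 4 or more in that set, as they did for 11131 genes. All 7 kinases passed this low-value filter, by 14 of their 23 probe sets. The other 9 probe sets, 6 of SRC, 2 of FYN and 1 of YES1, lay between 1.47 and 2.96 on every array, below the array medians of 2.997 to 3.07, and their differences from scrambled siRNA were all between -0.07 and 0.03. Of the targets, VEGFC stood at 11.81 and 11.80 with scrambled siRNA and at 8.46 and 7.27 with VEGF-C siRNA. NRP2 stood at 4.77 and 4.92 with scrambled siRNA and at 3.41 and 2.81 with NRP-2 siRNA, close to the floor. With VEGF-C siRNA its arrays read 5.51 and 6.01, a difference of 0.91 (SE 0.26, limma's adjusted p = 0.257). All 5 epithelial markers (KRT8, KRT18, KRT19, EPCAM, CDH1) had means of 12.04 or higher. Of 6 leukocyte markers, 4 had a probe set that names only that gene (PTPRC, CD3E, CD79A, ITGAM), with means between 2.15 and 3.78. Their summed level ran from 11.78 to 12.001 in the scrambled arrays. It ran from 11.84 to 11.86 in the VEGF-C siRNA group and from 11.83 to 11.92 in the NRP-2 siRNA group. Fibroblast markers passed the filter for 3 of 5 genes, with COL1A1 highest at a mean of 10.24. With VEGF-C and NRP-2 siRNA, COL1A1 was at -0.70 and -0.84, COL3A1 at -0.33 and 0.36, and ACTA2 at 0.09 and 0.41. Endothelial markers passed for 1 of 4, PECAM1, with a mean of 9.83 and differences of -0.86 and -0.005. Androgen-responsive luminal prostate markers passed for 2 of 5, KLK3 (0.48 and -0.03) and TMPRSS2 (-0.55 and -1.57, limma's adjusted p = 0.545 and 0.249). LYN is also a kinase of blood cells.

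FRK was lower with both targeting siRNAs than with scrambled siRNA. Its probe set 235924_at read 7.75 and 8.18 with scrambled siRNA, 6.54 and 6.34 with VEGF-C siRNA, and 5.87 and 6.87 with NRP-2 siRNA. Both scrambled arrays stood above all 4 others, and the VEGF-C arrays fell between the NRP-2 arrays. The mean was 7.96 ± 0.30 (SD, n = 2) with scrambled siRNA, 6.44 ± 0.14 in the VEGF-C siRNA group and 6.37 ± 0.71 in the NRP-2 siRNA group. The difference from scrambled siRNA was -1.53 (SE 0.35, from the limma fit of all genes) or 2.88-fold lower with VEGF-C siRNA, and -1.60 (SE 0.35) or 3.03-fold lower with NRP-2 siRNA. Both comparisons use the same 2 scrambled arrays. In order from the lowest, FRK was number 12 of 11131 genes in the VEGF-C siRNA group and number 28 in the NRP-2 siRNA group. It was the one member at least 2-fold lower, as were 1.1% of all genes in the VEGF-C siRNA group and 1.45% in the NRP-2 siRNA group.

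The levels of FRK with the VEGF-C and NRP-2 siRNAs could not be ordered. NRP-2 minus VEGF-C was -0.07 (SE 0.35). Without NRP-2 array 1 this difference was 0.43, and without NRP-2 array 2 it was -0.57. The difference from scrambled siRNA depended on the same arrays in size, with -1.10 without NRP-2 array 1 and -2.10 without NRP-2 array 2. For VEGF-C siRNA it ran from -1.74 to -1.32 as any 1 of the 6 arrays was left out. The residual SD of FRK within groups was 0.45, larger than that of 90.9% of genes, whose median was 0.18.

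**Figure D1:**
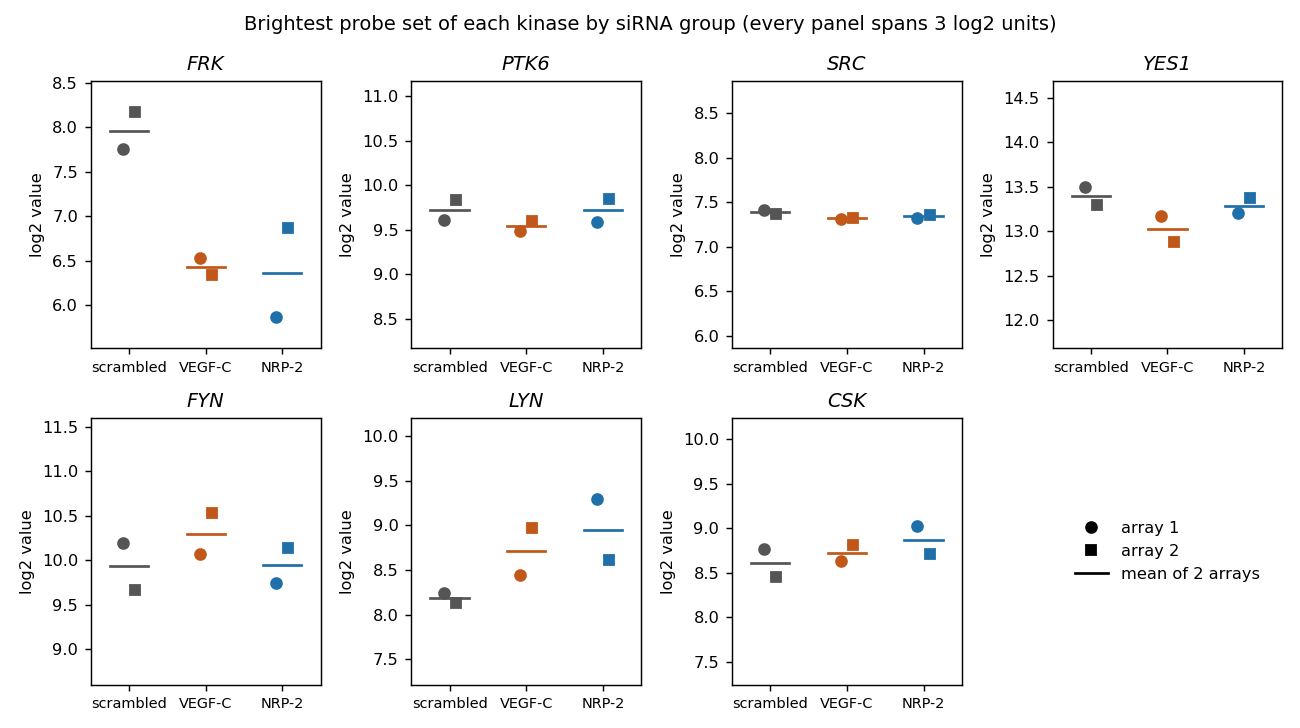
Log2 value of the brightest probe set of each kinase (vertical axis, 3 log2 units in every panel) in the scrambled, VEGF-C and NRP-2 siRNA groups; circles are array 1, squares array 2 and lines the mean of 2 arrays. Group means of FRK are 7.96, 6.44 and 6.37, those of LYN 8.18, 8.71 and 8.95, and the SRC arrays all lie between 7.31 and 7.41.

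The second FRK probe set did not show this pattern. Probe set 207178_s_at read 4.55 and 4.56 with scrambled siRNA, 4.45 and 4.58 with VEGF-C siRNA, and 4.48 and 4.59 with NRP-2 siRNA. Its differences from scrambled siRNA were -0.04 and -0.03, and its groups overlapped. For the mean of both probe sets FRK was at -0.79 (SE 0.21) in the VEGF-C siRNA group and -0.81 (SE 0.21) in the NRP-2 siRNA group. Such disagreement occurred in other genes. Of 122 genes at least 2-fold lower with VEGF-C siRNA, 47 had another probe set past the low-value filter, and in 9 of these (19.1%) no other set was lower by 0.25 or more. With NRP-2 siRNA this held for 8 of 72 genes (11.1%). The FRK values above therefore rest on 1 probe set, and this array does not settle which of the sets follows the FRK transcript in PC3 cells.

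Mitotic gene levels also differed between the arrays. The mean of 19 G2 and mitosis genes was 10.10 and 8.45 in the scrambled arrays, 10.97 and 10.22 in the VEGF-C arrays, and 10.78 and 9.79 in the NRP-2 arrays. In every group array 1 had the higher mean. All 19 genes were above 0 in both comparisons with scrambled siRNA, where 5490 and 5768 of all 11131 genes were. Their median differences were 1.27 and 0.96, and limma called 0 of the 19 at an adjusted p under 0.05. These genes varied together over the arrays, so the count is not 19 separate results. FRK was highest in scrambled array 2, where the mean of the 19 genes was lowest. It read 7.75 and 8.18 in the scrambled arrays, 6.54 and 6.34 in the VEGF-C arrays, and 5.87 and 6.87 in the NRP-2 arrays. Within the scrambled and NRP-2 pairs FRK was higher in the array with the lower mean. Within the VEGF-C pair it was higher in the array with the higher mean. The part of cell cycle genes in the differences of the members was not tested.

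The genes beside FRK on chromosome 6 were looked up after the FRK values were known. Since FRK was selected on differences in these arrays, most genes would lie closer to 0 than FRK, and nothing is read from that. Of the 3 nearest protein-coding genes on each side in RefSeq, 4 passed the low-value filter. NT5DC1, the next gene on one side, was at -0.26 (SE 0.15) in the VEGF-C siRNA group and -0.06 (SE 0.15) in the NRP-2 siRNA group. The histone deacetylase gene HDAC2 was at -0.19 and -0.24, and MARCKS, an actin-binding substrate of protein kinase C, at -0.08 and -0.12. TSPYL4 was at -0.50 (SE 0.18) and -0.85 (SE 0.18), with limma's adjusted p = 0.319 and 0.227. The genes whose profile over the 6 arrays was nearest to that of FRK were the protocadherin genes PCDHB14 and PCDHB7, MACROD2, RCBTB1 and ACER2, a ceramidase gene, with a root mean square difference of centred log2 values from 0.16 to 0.28, against a median of 0.83 over 11130 genes. PCDHB14, the nearest, read 7.51 and 7.61 with scrambled siRNA, 6.06 and 6.11 with VEGF-C siRNA, and 5.50 and 6.76 with NRP-2 siRNA.

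PTK6, a kinase grouped with FRK and also called BRK, had both of its differences from scrambled siRNA close to 0. Its probe set 206482_at read 9.60 and 9.83 with scrambled siRNA, 9.49 and 9.60 with VEGF-C siRNA, and 9.58 and 9.85 with NRP-2 siRNA. The VEGF-C arrays lay just below the scrambled arrays, and the NRP-2 arrays spanned them. The difference from scrambled siRNA was -0.18 (SE 0.16) in the VEGF-C siRNA group and -0.004 (SE 0.16) in the NRP-2 siRNA group. Its other probe set, 1553114_a_at, gave -0.04 and 0.04 between values of 6.72 and 6.90.

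SRC, the prototype of the family, stayed within a range of 0.10 over all 6 arrays. Its 1 probe set past the low-value filter, 213324_at, read 7.41 and 7.37 with scrambled siRNA, 7.31 and 7.33 with VEGF-C siRNA, and 7.33 and 7.36 with NRP-2 siRNA. The differences were -0.07 (SE 0.11) and -0.04 (SE 0.11). The VEGF-C and NRP-2 arrays lay below both scrambled arrays by less than the SE of the difference. The residual SD of SRC was 0.02, and 0.827% of genes had a smaller one. Since 6 of the 7 SRC probe sets were below the array medians, this picture also rests on 1 set.

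YES1, a family member close in sequence to SRC, was slightly lower with VEGF-C siRNA. Its brightest probe set, 202933_s_at, read 13.50 and 13.29 with scrambled siRNA, 13.18 and 12.88 with VEGF-C siRNA, and 13.20 and 13.38 with NRP-2 siRNA. Both VEGF-C arrays lay below both scrambled arrays, and the NRP-2 arrays overlapped them. The difference was -0.37 (SE 0.16) in the VEGF-C siRNA group and -0.11 (SE 0.16) in the NRP-2 siRNA group. The first was -0.22 without VEGF-C array 2, and the second ran from -0.21 to -0.0042 as any 1 array was left out. In the second set, 202932_at, the VEGF-C arrays read 12.17 and 11.65 against 11.90 and 12.06 with scrambled siRNA, a difference of -0.08 with overlapping groups.

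FYN, which acts at adhesions and in the immune and nervous systems, varied about as much within groups as between them. Its brightest probe set, 210105_s_at, read 10.19 and 9.66 with scrambled siRNA, 10.06 and 10.53 with VEGF-C siRNA, and 9.74 and 10.14 with NRP-2 siRNA. All 3 groups overlapped. The difference was 0.37 (SE 0.27) in the VEGF-C siRNA group and 0.01 (SE 0.27) in the NRP-2 siRNA group. As any 1 array was left out, these ran from 0.11 to 0.63 and from -0.25 to 0.27. Another set, 212486_s_at, gave 0.22 and 0.08, also with overlapping groups. In the third, 216033_s_at, the VEGF-C arrays at 7.03 and 7.17 lay above the scrambled arrays at 6.68 and 6.37, a difference of 0.58.

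LYN was higher with both targeting siRNAs at each of its 3 probe sets. The brightest, 202625_at, read 8.24 and 8.13 with scrambled siRNA, 8.45 and 8.98 with VEGF-C siRNA, and 9.30 and 8.61 with NRP-2 siRNA. Both scrambled arrays were below the other 4. The mean was 8.18 ± 0.08 (SD, n = 2) with scrambled siRNA, 8.71 ± 0.37 in the VEGF-C siRNA group and 8.95 ± 0.48 in the NRP-2 siRNA group. The difference was 0.53 (SE 0.29) or 1.44-fold in the VEGF-C siRNA group and 0.77 (SE 0.29) or 1.71-fold in the NRP-2 siRNA group.

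The other LYN probe sets gave like values. Set 202626_s_at was at 0.53 in the VEGF-C siRNA group and 0.80 in the NRP-2 siRNA group, and set 210754_s_at at 0.86 and 0.75. In all 3 sets the scrambled arrays were the lowest 2 of the 6, and NRP-2 array 1 was the highest. As any 1 array was left out, the brightest set ranged from 0.27 (without VEGF-C array 2) to 0.79 (without VEGF-C array 1) with VEGF-C siRNA, and from 0.43 (without NRP-2 array 1) to 1.11 (without NRP-2 array 2) with NRP-2 siRNA. The levels of LYN with the VEGF-C and NRP-2 siRNAs overlapped and differed by 0.24 (SE 0.29).

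**Figure D2:**
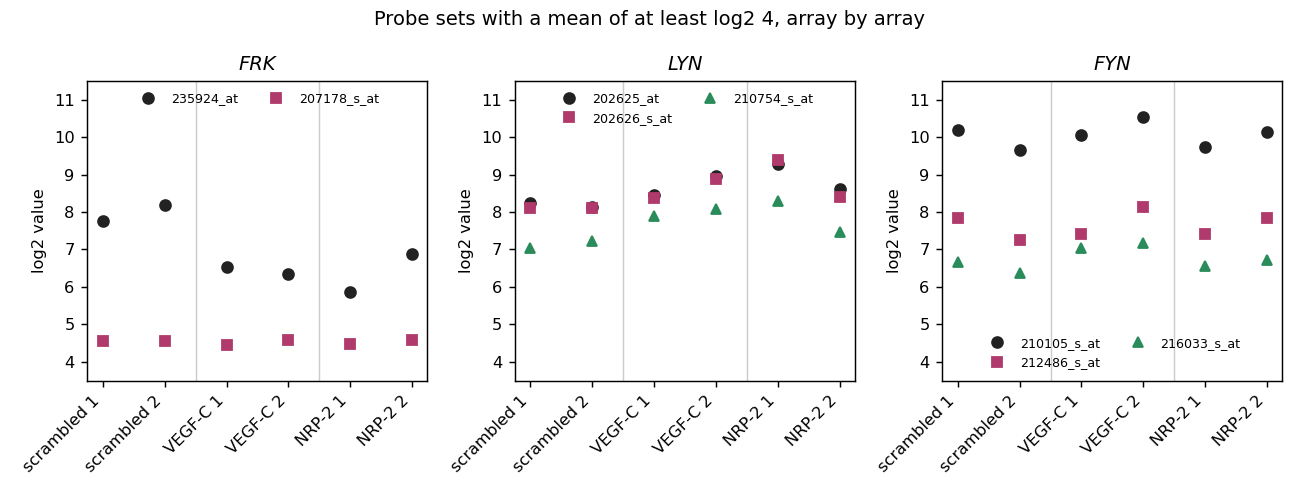
Log2 values (vertical axis) in each of the 6 arrays (horizontal axis) for every probe set of FRK, LYN and FYN with a mean of at least log2 4. The lower FRK set stays between 4.45 and 4.59 while the upper one runs from 8.18 to 5.87, whereas the 3 LYN sets move together.

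CSK, the kinase that holds the Src family inactive, had 1 probe set, 202329_at. It read 8.77 and 8.46 with scrambled siRNA, 8.64 and 8.81 with VEGF-C siRNA, and 9.03 and 8.71 with NRP-2 siRNA. The groups overlapped in every comparison. The difference from scrambled siRNA was 0.11 (SE 0.18) in the VEGF-C siRNA group and 0.25 (SE 0.18) in the NRP-2 siRNA group.

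Over the members together, groups whose arrays did not overlap were counted beside those of all genes. Against scrambled siRNA, both VEGF-C arrays lay below in FRK, PTK6, SRC and YES1, 4 of 7 members, where 26.6% of all genes did so, and above in LYN, 1 of 7, where 26.8% did. Both NRP-2 arrays lay below in FRK and SRC, 2 of 7, where 24.4% of all genes did so, and above in LYN, 1 of 7, where 25.3% did. Between the targeting siRNAs, the NRP-2 arrays lay above the VEGF-C arrays in SRC and YES1, 2 of 7 (24.1% of all genes), and below them in 0 of 7 (22.4%). These contrasts were known when the members were chosen, and nothing is read from the counts. At limma's adjusted p under 0.05, 0 of the 11131 genes were called in each of the 3 comparisons, with 1642 at an unadjusted p under 0.05 for VEGF-C siRNA, 1478 for NRP-2 siRNA and 2026 between the targeting siRNAs (9.54% of genes higher and 8.66% lower with NRP-2 siRNA).

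**Figure D3:**
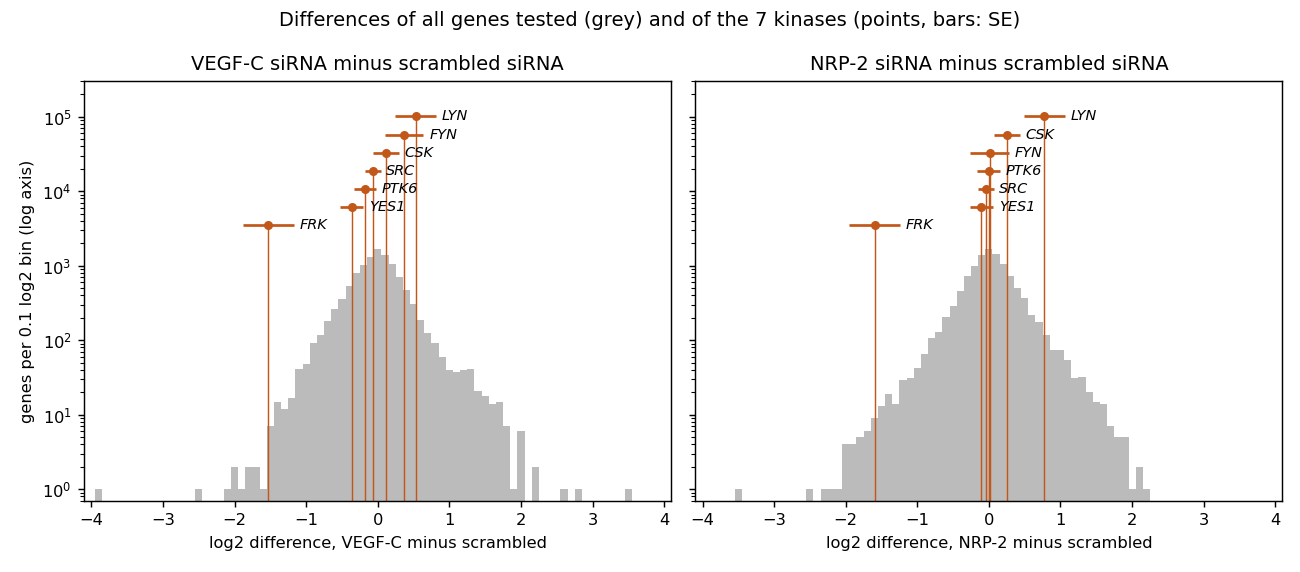
Log2 difference from scrambled siRNA (horizontal axis) for all 11131 genes as grey bars of 0.1 log2 (counts on a log axis), with the 7 kinases as orange points placed at arbitrary heights and bars of 1 SE. FRK lies at -1.53 and -1.60 in the lower tail, LYN at 0.53 and 0.77, and the other 5 within 0.37 of 0.

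Genes that act with these kinases were taken from lists written with earlier results of these arrays known, and they were tested in the same fit. The lists hold 69 genes that are not members, and 53 passed the low-value filter. Limma called 0 of 53 at an adjusted p under 0.05 in each comparison with scrambled siRNA, as it called 0% of all genes. At an unadjusted p under 0.05, 5 were higher and 7 lower with VEGF-C siRNA (6.95% and 7.8% of all genes), and 1 was higher and 7 lower with NRP-2 siRNA (6.43% and 6.85%). NRP2, the target of that siRNA, is on the receptor list and among these 7. The median difference was -0.04 and -0.05, beside -0.004 and 0.01 over all genes. Of the other kinases of the family and its relatives, LCK passed the filter, between 3.46 and 4.73, and FGR, BLK, SRMS and MATK did not.

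PAG1, the adaptor that recruits CSK, stood higher with NRP-2 siRNA. Its brightest probe set read 6.69 and 7.41 with scrambled siRNA, 7.69 and 7.25 with VEGF-C siRNA, and 8.60 and 8.75 with NRP-2 siRNA. Both NRP-2 arrays were above the other 4. The difference was 1.62 (SE 0.28) with NRP-2 siRNA, which did not pass over all genes (limma's adjusted p = 0.213), and 0.42 (adjusted p = 0.515) with VEGF-C siRNA. The other 2 PAG1 probe sets were at 1.68 and 0.94 with NRP-2 siRNA, and at 0.60 and -0.19 with VEGF-C siRNA. All 3 sets were thus higher with NRP-2 siRNA. As any 1 array was left out, its NRP-2 difference ran from 1.27 to 1.98.

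The phosphatases, ligases and adaptors that act on Src family kinases, PAG1 among them, passed the filter for 14 of 15 genes. With VEGF-C siRNA 8 were above 0 and 6 below (median 0.07), and with NRP-2 siRNA 7 and 7 (median -0.05). PTPRA, a receptor phosphatase that removes the inhibitory tail phosphate, was at -0.52 (limma's adjusted p = 0.245) in the VEGF-C siRNA group and -0.35 in the NRP-2 siRNA group, the second at -0.79 for the mean of its probe sets. ERRFI1, a feedback inhibitor of EGFR, was at 0.52 (adjusted p = 0.241) and -0.14. PTPN12, a phosphatase of adhesion proteins, was at 0.44 (adjusted p = 0.251) and 0.08, or 0.28 and -0.22 for the mean of its probe sets.

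Substrates and scaffolds at adhesions and the cell cortex passed the filter for 19 of 23 genes. With each siRNA 6 were above 0 and 13 below, with medians of -0.16 and -0.13, and both comparisons share the scrambled arrays. Over all genes tested, 5490 were above 0 and 5641 below with VEGF-C siRNA, and 5768 and 5363 with NRP-2 siRNA. SH3PXD2A, the scaffold of invadopodia also called TKS5, read 7.88 and 8.21 with scrambled siRNA, 7.37 and 6.63 with VEGF-C siRNA, and 7.01 and 7.63 with NRP-2 siRNA. It was at -1.04 (SE 0.33, limma's adjusted p = 0.278) and -0.72 (adjusted p = 0.412), and without VEGF-C array 2 the first of these was -0.67. The adhesion protein gene TNS3 was at -0.58 (adjusted p = 0.24) with VEGF-C siRNA, TJP1, of tight junctions, at 0.43 (adjusted p = 0.306), and the exchange factor gene VAV2 at -0.43 (adjusted p = 0.293) with NRP-2 siRNA.

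Reported substrates and partners of FRK and PTK6 passed the filter for 8 of 13 genes, with medians of 0.03 and 0.06. EGFR, which FRK has been reported to phosphorylate, was at 0.49 (limma's adjusted p = 0.319) in the VEGF-C siRNA group and -0.33 (adjusted p = 0.464) in the NRP-2 siRNA group, the first at 0.27 without VEGF-C array 1. The others named by the rule, the PTK6 substrate gene STAP2, the splicing factor gene SFPQ and the adaptor gene DOK1, lay between -0.07 and 0.14 in both comparisons. Receptors that signal through the family passed for 12 of 13 genes. With VEGF-C siRNA 7 were above 0 and 5 below (median 0.02), and with NRP-2 siRNA 2 were above and 10 below (median -0.28). NRP2 itself is 1 of these 10. Over all genes tested, 5490 were above 0 and 5641 below with VEGF-C siRNA, and 5768 and 5363 with NRP-2 siRNA. ERBB3, a receptor of neuregulins, was at -0.71 (adjusted p = 0.456) and -1.27 (adjusted p = 0.307), the second at -0.67 without NRP-2 array 1. Its NRP-2 arrays read 10.33 and 11.54 against 11.99 and 12.42 with scrambled siRNA. ERBB2, its partner, was at -0.47 (adjusted p = 0.338) and -0.52 (adjusted p = 0.343), the second at -0.30 without NRP-2 array 1.

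**Figure D4:**
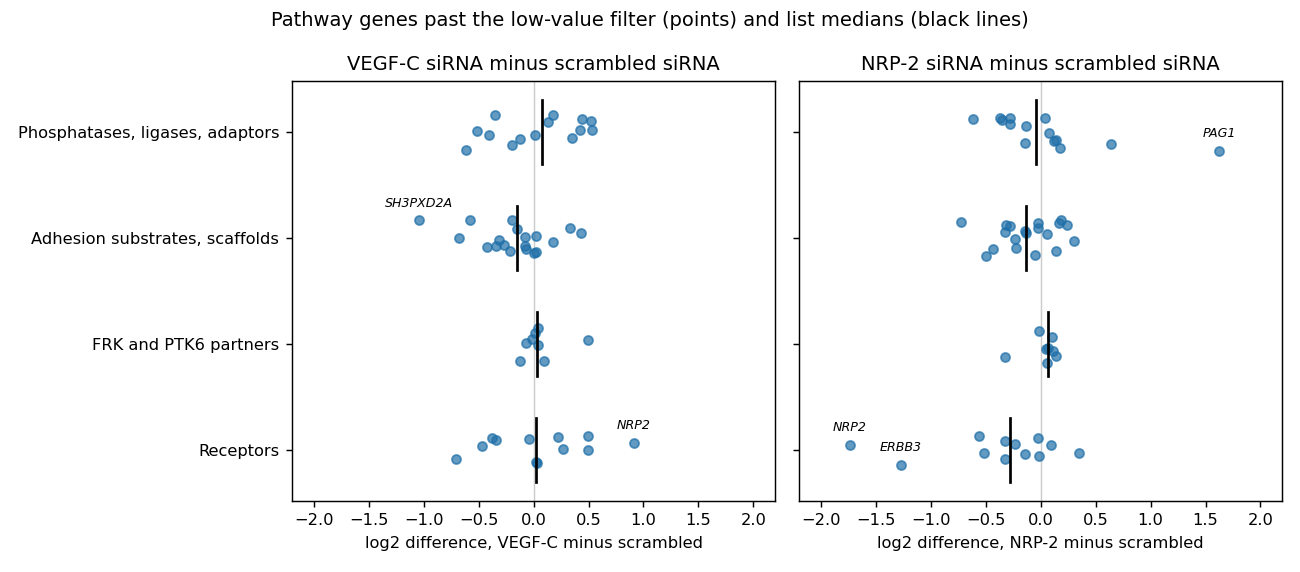
Log2 difference from scrambled siRNA (horizontal axis) of the genes of 4 pathway lists past the low-value filter (points, spread vertically at random) with list medians as black lines, for VEGF-C siRNA on the left and NRP-2 siRNA on the right. Genes at least 0.9 from 0 are named; PAG1 is at 1.62 on the right, SH3PXD2A at -1.04 on the left, and the list medians lie between -0.28 and 0.07.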

How the data were processed

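Probe set values were deposited on a log2 scale. The submitters' processing notes name Partek and GCRMA; no version of either is given in the sources used here. The GCRMA method corrects background, normalizes arrays and summarises probes. It can compress signals near the floor, so differences of probe sets at that level may be understated, which was not tested. Deposited log2 values ran from 0.82 to 16.32. Scanner files and detection calls were not used here, and precision is limited by the number of arrays.

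Of 54675 probe sets, 62 were controls, 41091 named 1 gene in the 2016 platform annotation, 1801 several and 11721 none. Genes were represented by the brightest probe set with a mean of at least log2 4, and 11131 were compared in limma 3.58.1 under R 4.3.3 (lmFit, eBayes, two-sided, Benjamini-Hochberg) in a fit of all 6 arrays. The procedure was tested on simulated data. Alternatives were the filter, probe set choice, array scaling, a replicate block, each array left out and fits of 2 groups.

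The members and gene lists were chosen with earlier results of these data known. All members and both siRNA targets are named, with up to 4 genes per pathway list by smallest p against scrambled siRNA and the 5 genes nearest to FRK in profile.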

Additional observations from a re-analysis of the deposited data

How the results depend on the processing

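For the mean of all probe sets past the filter FRK moved to -0.79 in the VEGF-C siRNA group and -0.81 in the NRP-2 siRNA group, and with arrays shifted to equal medians SRC moved to -0.02 with NRP-2 siRNA. Without 1 array each, FRK ranged from -1.74 to -1.32 with VEGF-C siRNA, from -2.10 to -1.10 with NRP-2 siRNA and from -0.57 to 0.43 between them. With no filter on low values limma called 1 gene for VEGF-C siRNA against scrambled siRNA and 1 for NRP-2 against VEGF-C siRNA, NWD2 in both (2.14, adjusted p = 0.0439, and -2.23, adjusted p = 0.0374), named after its values were seen; every other alternative called 0 genes in all 3 comparisons. Unadjusted counts fell most without a scrambled array, to 666 genes with VEGF-C siRNA (1040 without the other), and rose to 2706 with NRP-2 siRNA without NRP-2 array 2.

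The replicate number as a block called 0 genes in each comparison, and since every group has 1 array of each number it can change the SE of a difference but not the difference itself. For FRK the SE was 0.29 in place of 0.35 beside -1.53 and -1.60. Array 1 minus array 2 correlated across genes by 0.11, 0.58 and 0.12 between the groups, but with 2 arrays a group the labels do not show that the number pairs the samples. Small differences changed sign. Among the kinases, without 1 array each, CSK ran from -0.042 to 0.27 with VEGF-C siRNA, FYN from -0.25 to 0.27 and PTK6 from -0.14 to 0.13 with NRP-2 siRNA, and NRP-2 minus VEGF-C from -0.10 to 0.58 for LYN and from -0.017 to 0.30 for CSK. For VEGF-C siRNA, SFPQ was at -0.025 for the mean of probe sets and ran from -0.12 to 0.20 without 1 array each, LCK from -0.75 to 0.36 and VAV2 from -0.18 to 0.020. For NRP-2 siRNA, the mean of probe sets put PTPN12 at -0.22 and SFPQ at -0.10, and without 1 array each TJP1 ran from -0.16 to 0.053, STAP2 from -0.056 to 0.27 and VEGFC from -0.14 to 0.18. The cause of these moves was not tested.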

Other observations

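The NRP-2 arrays differed from each other more than the other pairs in several genes of this pathway, named here after their values were seen. FRK read 5.87 and 6.87, LYN 9.30 and 8.61, and ERBB3 10.33 and 11.54. In FRK and ERBB3, NRP-2 array 1 lay farther from the scrambled arrays than NRP-2 array 2, and the same held for LYN in the opposite direction.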
